A study of Mus musculus with 4 samples.

Results

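Among single cells of the mouse pituitary, 98 barcodes carried high shares of both growth hormone (Gh) and prolactin (Prl) transcripts. They were chosen by measured values: a total of 1000 to 10000 unique molecular identifiers (UMIs, which count captured transcripts), at most 10% of UMIs from mitochondrial genes (mt-), at least 15% from Gh, at least 5% from Prl, and under 1% each from Pomc and Cga. The total and mitochondrial limits alone admitted 24367 of the 40406 barcodes in the data, so the 98 were 0.402% of that window (exact 95% interval 0.327 to 0.490%). The high Gh and Prl of these barcodes is what the rule asked for and is given only as a description.

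The pituitaries came from male mice, 4 weeks old at the start, that then had 12 weeks of a high-fat diet (HFD) or a normal diet (ND). The study made 2 libraries per diet on the 10x Genomics 3′ platform, each from 3 pooled pituitaries. Every library is also labelled with a cell line, Lbt2, and the cell type gonadotroph, while the protocol describes dissociated whole gland. In the window, Gh made up at least 25% of UMIs in 26.6% of barcodes and Prl at least 8% in 22.8%, whereas the gonadotroph hormone gene Lhb reached 0.5% in 8 barcodes and Fshb in 94, so the gonadotroph label did not describe most cells. All libraries are in 1 matrix, whose barcodes carry a number from 1 to 4 that nothing in the sources used here ties to a library or a diet. HFD and ND were therefore not compared. The barcodes sharing a number form sets 1 to 4 below. A set cannot be counted as a replicate, so values are given pooled, by set and with intervals that cover counting error only, and no test was run.

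Growth hormone is made by somatotrophs and prolactin by lactotrophs. Both cell types, with thyrotrophs, depend on the transcription factor POU1F1 (PIT-1), which binds the promoters of Gh, Prl and its own gene. Cells that make both hormones are called somatolactotrophs or mammosomatotrophs and are known from histology and culture. In droplet sequencing, 2 cells caught under 1 barcode (a doublet) also give both hormones, and free RNA adds a low level of abundant transcripts to every droplet.

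The promoters of Prl and Pou1f1 are shown because POU1F1, the factor shared by the 2 lineages, is known to act at both. The sequences are those of RefSeq on GRCm38.p6, from 250 bases before to 50 after the start of the gene, 5′ to 3′ on the gene's strand. Capitals mark matches to TATNCAT, a shortened form of the POU1F1 site, searched on both strands; the matches do not overlap. Among 32851 promoters of this length, 8.84% held at least 1 match and 1.5% held 2 or more. A match is only a run of letters, not a measured site.
Prl, chr13:27057320-27057619, plus strand: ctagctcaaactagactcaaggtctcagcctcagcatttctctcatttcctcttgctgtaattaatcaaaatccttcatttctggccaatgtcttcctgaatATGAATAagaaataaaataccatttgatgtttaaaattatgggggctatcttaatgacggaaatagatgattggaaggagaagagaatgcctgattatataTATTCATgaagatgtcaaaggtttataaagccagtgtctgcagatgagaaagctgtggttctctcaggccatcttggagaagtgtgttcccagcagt
Pou1f1, chr16:65520262-65520561, plus strand: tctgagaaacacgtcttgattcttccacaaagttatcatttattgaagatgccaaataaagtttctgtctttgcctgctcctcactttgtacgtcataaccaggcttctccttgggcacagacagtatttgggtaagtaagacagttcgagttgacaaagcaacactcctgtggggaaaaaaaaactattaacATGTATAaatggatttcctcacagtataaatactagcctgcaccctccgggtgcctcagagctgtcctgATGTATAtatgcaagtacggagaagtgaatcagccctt
Each of these promoters held 2 matches. In Prl they began 148 bases before the start site on the reverse strand and 47 bases before it on the forward strand. In Pou1f1 both lay on the reverse strand, beginning 57 bases before and at base 13 after the start. The table holds another Pou1f1 promoter, chr16:65523059-65523358, with no match.

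The 98 barcodes were spread over all sets, with 19 in set 1, 20 in set 2, 23 in set 3 and 36 in set 4. As shares of each set's window these were 0.307%, 0.356%, 0.375% and 0.560%. The exact intervals of the lowest share (0.185 to 0.479%) and the highest (0.392 to 0.774%) overlapped. The 4 sets held 81621358 to 92665029 UMIs each. Across sets, 156 barcode sequences occurred in more than 1 set (20 to 30 for each pair of sets). No sequence was carried by more than 1 of the 98. Sequences shared between the 98 and other barcodes were not counted.

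Gh ranged from 15 to 39.3% of UMIs in these barcodes, with a median of 21.7%. Prl ranged from 5.01 to 35.0%, with a median of 8.46%. In all, 20 barcodes had Gh of at least 30%, 14 had Prl of at least 15%, and 3 had both. For comparison, corticotroph-lineage barcodes (Pomc-only, 1464 with at least 3% Pomc, under 10% Gh and under 3% Prl) had median shares of 1.04% Gh and 0.132% Prl at a median of 6898.5 UMIs. Those shares are the level of both transcripts in cells of another lineage; the limits that define the 2 groups do not overlap, so nothing is read from the difference.

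Barcodes just outside the limits were as sparse as those just inside. With Gh of at least 15%, 12 barcodes had Prl of 5 to 6% and 19 had 4 to 5%; the highest Prl under the limit was 4.75%. With Prl of at least 5%, 20 had Gh of 15 to 17% and 13 had 13 to 15%, the highest being 14.8%. Among barcodes with Gh of at least 15%, 7774 had Prl under 3% and only 37 had 3 to 5%. A further 19 barcodes had both hormones but reached 1% of Pomc or Cga and were not included.

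**Figure D1:**
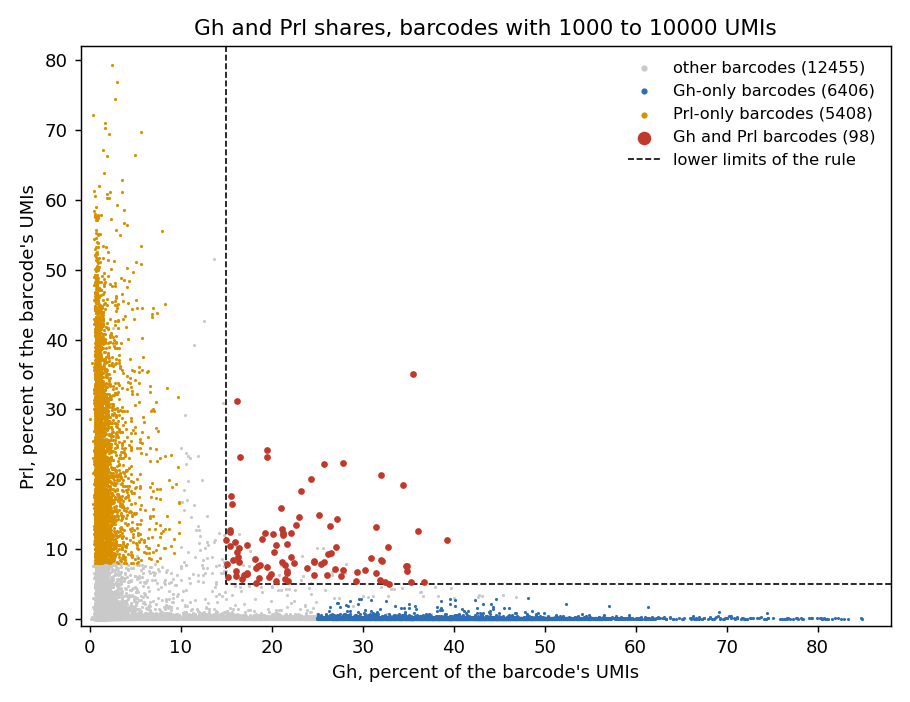
Share of Gh (x axis) and Prl (y axis) among the UMIs of each barcode in the window, 1 point per barcode; dashed lines are the lower limits of the rule. The 98 chosen barcodes lie between the arm of 6406 Gh-only barcodes along the x axis and the arm of 5408 Prl-only barcodes along the y axis, where few other barcodes fall.

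To set these barcodes beside sums of separate cells, 2 reference groups were taken from the same window. Gh-only barcodes (Gh at least 25%, Prl under 3%) numbered 6406, and Prl-only barcodes (Prl at least 8%, Gh under 10%) numbered 5408, each with Pomc and Cga under 1%. Within each set every Gh-only barcode was added to every Prl-only barcode, which gave 8737807 pairs. A pair whose sum met all limits of the rule was kept as a qualifying pair sum. Only 638346 pairs (7.31%) did so, and 81.4% of the pairs exceeded 10000 UMIs.

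The 98 barcodes held fewer UMIs than either reference or the pair sums. Their totals ran from 1265 to 9997 with a median of 5215.5, against medians of 7173.5 in Gh-only and 6925 in Prl-only barcodes. The medians by set were 7268, 4037.5, 5805 and 4826, so the order differed between sets and set 1 lay at the level of its references (7171 and 6864). Qualifying pair sums had a median of 8359 UMIs, with a 5th percentile of 4192 and a 95th of 9873. The 10000-UMI limit decides this comparison: with a limit of 20000 the count grew from 98 to 399 barcodes, and their median went from 0.727 to 1.48 times that of Gh-only barcodes.

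Above 10000 UMIs, barcodes with both hormones were more frequent. The share was 0.4995% at 1000 to 2000 UMIs, 0.443% at 2000 to 4000, 0.445% at 4000 to 6000, 0.263% at 6000 to 8000 and 0.444% at 8000 to 10000, a nearly flat course. Beyond the window it was 1.46% at 10000 to 15000 UMIs, 5.86% at 15000 to 20000, 8.97% at 20000 to 30000 and 5.16% (20 of 388 barcodes) above 30000. The exact intervals of these 4 shares (1.199 to 1.75%, 5.08 to 6.72%, 7.71 to 10.4% and 3.18 to 7.85%) did not overlap with those inside the window, and the last overlapped with the 2 before it.

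Counted per qualifying pair, Gh and Prl barcodes were 1.23 times as frequent as Gh and Pomc barcodes and 1.98 times as frequent as Prl and Pomc barcodes. Gh and Prl barcodes came to 153.5 per 1000000 qualifying pairs (exact Poisson interval 125 to 187). Barcodes with Gh of at least 15% and Pomc of at least 2%, of which there were 23, came to 125 per 1000000 (79.4 to 188). Barcodes with Prl of at least 5% and Pomc of at least 2%, of which there were 15, came to 77.8 per 1000000 (43.5 to 128). These counts include barcodes under 2000 UMIs, a total that no pair sum can have. They were 14 of the 98, 6 of the 23 and 2 of the 15, and the ratios were not recomputed without them. Pomc marks corticotrophs and melanotrophs, which do not arise from the POU1F1 lineage.

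The interval of the first ratio, 0.772 to 2.02, includes 1, and that of the second, 1.14 to 3.66, does not. Set 2 had the highest Gh and Prl rate, 415 per 1000000, against 118, 130 and 143 in sets 1, 3 and 4. It held 48151 qualifying pairs, 3.52% of its pairs, and its references had the highest median totals of the 4 sets (7590 and 7458 UMIs). Without set 2 the first ratio was 1.06 (0.638 to 1.86) and the second 1.72 (0.952 to 3.38), which then included 1.

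The rate per pair differed with the UMI total. At 2000 to 4000 UMIs there were 19 Gh and Prl barcodes and 26096 qualifying pair sums, or 728 per 1000000 (438 to 1137). The rate was 272 per 1000000 at 4000 to 6000, 104 at 6000 to 8000 and 68.6 (44.4 to 101) at 8000 to 10000. With the upper limit lifted for barcodes and sums, it was 42.3 per 1000000 (34.7 to 50.9) at 10000 to 15000 and 80.3 (69.4 to 92.6) at 15000 to 20000. The references kept their limit of 10000 UMIs, so pairs with a larger reference barcode were not counted. Such pairs would lower the rates above 10000 UMIs. At the low end the rate differed widely between sets, from 240 to 3055 per 1000000.

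Gh and Pomc barcodes came to 322 per 1000000 (87.7 to 824) at 2000 to 4000 UMIs and 186 at 4000 to 6000. They came to 83.5 at 6000 to 8000 and 41.5 (11.3 to 106) at 8000 to 10000. In the 2 ranges above, with the references limited in the same way, they came to 57.9 and 94.4. Their intervals overlapped those of Gh and Prl in each of the 6 ranges. Prl and Pomc barcodes numbered 0 at 2000 to 4000 UMIs, which allows up to 437 per 1000000. A further 14 of the 98 barcodes (14.3%) had fewer than 2000 UMIs, a total that no sum of 2 window barcodes can have. That share was 26.1% (6 of 23) for Gh and Pomc, 13.3% (2 of 15) for Prl and Pomc, 5.20% for Gh-only and 3.90% for Prl-only barcodes.

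**Figure D2:**
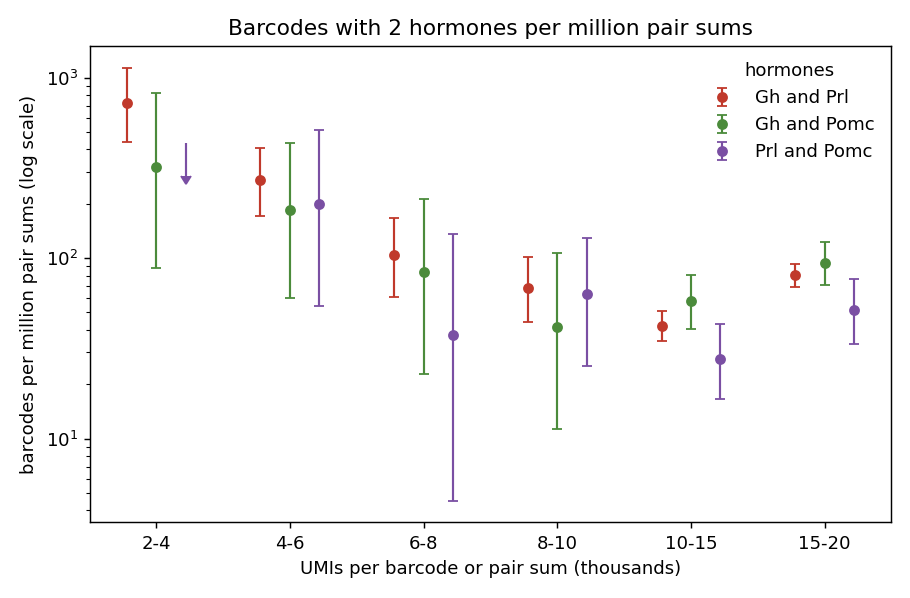
Barcodes with 2 hormones per 1000000 pair sums (y axis, log scale) in 6 ranges of UMIs (x axis), for Gh with Prl, Gh with Pomc and Prl with Pomc; points are pooled over 4 sets, bars are exact 95% Poisson intervals, and the arrow starts at the upper limit where no barcode was found. The Gh and Prl rate goes from 728 per 1000000 at the lowest totals to 42.3 at 10000 to 15000 UMIs, and the Gh and Pomc intervals overlap it throughout. Above 10000 UMIs the pairs still hold only reference barcodes of at most 10000 UMIs.

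As a further description of the values the rule used, each barcode's Gh share was divided by the Gh-only median (39.7%) and its Prl share by the Prl-only median (20.3%), and the 2 quotients were added. A cell with a full share of both would come to 2. The median was 1.05 in the 98 barcodes, with 5th and 95th percentiles of 0.747 and 1.75, and 1.11 in the qualifying pair sums (0.756 to 1.69). A sum over 1.5 occurred in 12 of 98 barcodes (12.2%) and in 11.7% of pair sums. Both groups met the same limits on Gh and Prl, which bound this sum.

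Apart from Pomc, Cga and the mitochondrial genes, which had upper limits, the other genes of these barcodes did not enter the rule. Levels below are counts per 1000000 UMIs other than those of Gh and Prl (CPM), from 351887 such UMIs in the 98 barcodes. Prl-side genes were those with at least 20 CPM in Prl-only barcodes and at least 3-fold more than in Gh-only barcodes in every set, 208 in number. The 282 Gh-side genes were defined in the reverse way. Both lists come from the references alone.

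Genes of both sides were present at intermediate levels. The 208 Prl-side genes summed to 28262 CPM in the 98 barcodes, between 6372 in Gh-only and 45282 in Prl-only barcodes. On a scale from 0 (Gh-only) to 1 (Prl-only) this was a position of 0.563 (0.548 to 0.577), against 0.535 in the pair sums. By set the position was 0.455, 0.482, 0.536 and 0.682, and that of the pair sums 0.496, 0.473, 0.575 and 0.562. Set 4 was the highest, and sets 1 and 3 lay under their own pair sums.

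The 282 Gh-side genes summed to 13371 CPM, between 3808 in Prl-only and 23994 in Gh-only barcodes. Their position from Prl-only (0) to Gh-only (1) was 0.474 (0.455 to 0.493), against 0.488 in the pair sums. By set it was 0.499, 0.590, 0.498 and 0.384, with 0.521, 0.548, 0.452 and 0.460 in the pair sums. The spread between sets was wider than the counting intervals and lay on both sides of the pair sums. Without set 4 both differences from the pair sums changed direction, with 0.492 against 0.519 for the Prl side and 0.525 against 0.502 for the Gh side, and the same held with the limit at 20000 UMIs (0.504 against 0.524, and 0.505 against 0.480). With the stricter limits of 20% Gh and 8% Prl, which 37 barcodes met, the Gh-side position was 0.405 and that of the pair sums 0.540.

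These positions use every gene of each list. Of the 208 Prl-side genes, 61 had at least 20 counts in the 98 barcodes, and of the 282 Gh-side genes 53 did; 1 gene of each list had no count at all. Since that minimum is on the 98 barcodes themselves, nothing is read from the genes that reached it.

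Most single barcodes held both gene sides. A barcode was counted for a side when its share of that side's genes exceeded the 95th percentile of the opposite reference, which was 1.14% for the Prl side and 0.703% for the Gh side. Both were exceeded in 79 of 98 barcodes (80.6%, exact interval 71.4 to 87.9%). The Prl side alone was exceeded in 11, the Gh side alone in 8, and no barcode lacked both. The share was 89.5%, 80.0%, 78.3% and 77.8% in sets 1 to 4. It was 90.3% in the pair sums. The limits themselves set the values of the references, 4.95% in Gh-only and 4.96% in Prl-only barcodes.

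Because the pair sums were deeper, barcodes were also thinned to 1000 UMIs other than Gh and Prl. Of the 98, 94 had that many, and 56 (59.6%, 49.0 to 69.6%) then held both sides, compared with 71.0% of 2000 thinned pair sums (69.0 to 73.0%). The limits at this depth were 1.3% for the Prl side and 0.8% for the Gh side. The shares before and after thinning are thus at different limits. After thinning, both sides were held by 3.70% of Gh-only, 4.17% of Prl-only and 24.8% of Pomc-only barcodes, the last of which were used to define neither side. The number of genes detected at this depth had a median of 743.6 in the 98 barcodes, 746.6 in pair sums, 760.6 in Gh-only and 726.6 in Prl-only barcodes. Before thinning, both sides were held by 16 of 23 barcodes with 1000 to 3000 UMIs, 26 of 33 with 3000 to 6000 and 37 of 42 with 6000 to 10000.

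**Figure D3:**
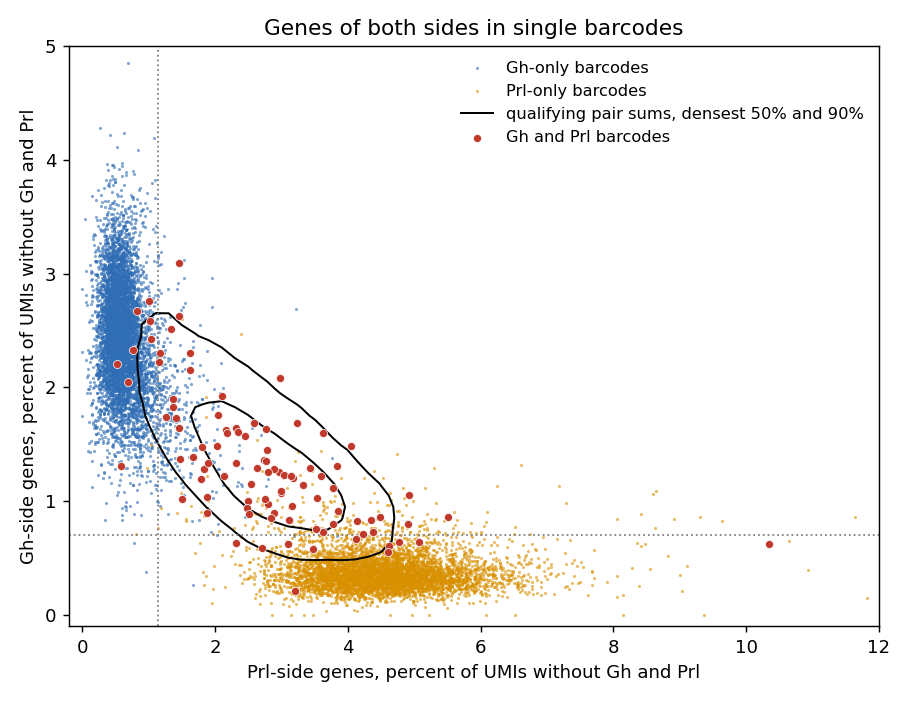
Percent of each barcode's UMIs, leaving out Gh and Prl, that came from the 208 Prl-side genes (x axis) and the 282 Gh-side genes (y axis); black contours enclose the densest 50% and 90% of the qualifying pair sums and dotted lines are the limits for each side. In 79 of the 98 barcodes both limits are exceeded, and the points run from the edge of one reference cloud to the edge of the other.

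The balance of the hormones went with the balance of the other genes. The Prl part of the 2 hormones had a median of 28.2% in the 98 barcodes, and the Prl side's part of all side-gene UMIs a median of 69.1%. Across the 98 barcodes Spearman's rho between them was 0.52, and it was 0.55 over the 75 with at least 2000 UMIs other than Gh and Prl. Across qualifying pair sums, which share their cells, it was 0.34. Where Prl was under 20% of the 2 hormones the side-gene median was 61.3% (14 barcodes). It was 60.5% at 20 to 30% (41 barcodes), 73.8% at 30 to 40% (26 barcodes) and 82.3% at 40% or more (17 barcodes). The pair sums gave 55.6%, 65.0%, 70.2% and 72.5% in these ranges, so the 98 barcodes were under the pair sums in the range that held 41 of them and above in the other 3. The barcodes share 4 libraries and differ in depth, so this is a description.

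The 8 somatotroph receptors and markers listed summed to 2484 CPM in the 98 barcodes (2322 to 2654), with 3797 in Gh-only, 806 in Prl-only and 2266 in pair sums. The 10 lactotroph receptors and markers summed to 938 CPM (839 to 1045), with 468, 1331 and 968 in the same order. Dlk1 alone gave 717 of the 874 counts of the somatotroph list. The lactotroph list includes Prlr, which was higher in Gh-only (260 CPM) than in Prl-only barcodes (70.2). Of these lists 7 and 6 genes could be compared with the pair sums, and none was called different by the rule given further on. That rule called 0.324% of all genes compared higher and 0.648% lower, so nothing is read from this.

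Among the receptors, Ghrhr, the receptor through which growth hormone-releasing hormone drives somatotrophs, was at 168, 144, 119 and 125 CPM in sets 1 to 4, or 136 pooled (101 to 181). It was at 260 CPM in Gh-only, 5.29 in Prl-only and 135 in pair sums. Every set lay far above the Prl-only level and under the pooled Gh-only level. Ghrhr was detected in 30 of the 98 barcodes (30.6%, 21.7 to 40.7%), against 2.46% of Pomc-only barcodes at higher median depth. Ghsr, the ghrelin receptor, had 0 counts in the 98 barcodes, which allows up to 10.5 CPM; Gh-only barcodes had 4.46.

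Drd2, the dopamine receptor that restrains lactotrophs, was at 64.6, 95.8, 35.7 and 102 CPM by set and 76.7 pooled (50.6 to 112, from 27 counts). Gh-only barcodes had 4.58, Prl-only 122 and pair sums 65.6. All 4 sets were above the Gh-only level. The angiotensin receptor gene Agtr1a was at 142, 63.9, 71.4 and 117 CPM by set and 102 pooled, between 1.81 in Gh-only and 168 in Prl-only barcodes, with 91.6 in pair sums. Trhr, the receptor for thyrotropin-releasing hormone, was at 0 counts, and at 1.07 CPM in Prl-only barcodes.

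Receptors for steroids and prolactin lay between the references as well. Esr1, an estrogen receptor, was at 205 CPM (172 in Gh-only, 280 in Prl-only, 226.5 in pair sums). Nr3c1, the glucocorticoid receptor, was at 145 CPM (278, 18.6 and 133 in the same order). Prlr, the prolactin receptor, was at 148 CPM (260, 70.2 and 167). The somatostatin receptor Sstr2 had 0 counts and Sstr5 had 3. Of the 27 receptors of hormone inputs listed, 10 had 0 counts, and 11 reached the level needed for a comparison with the pair sums.

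Among the transcription factors, Pou1f1 was at 827, 511, 548 and 688 CPM in sets 1 to 4, or 654 pooled (572 to 744). Gh-only barcodes had 608, Prl-only 720 and pair sums 702.5, so the pooled level was within the range of its references. It was detected in 75 of 98 barcodes (76.5%, 66.9 to 84.5%), in 82.3% of Gh-only, 90.8% of Prl-only and 6.69% of Pomc-only barcodes. The 98 barcodes thus carried the lineage factor at a level that Pomc-only barcodes did not, at a lower median depth.

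Six6, a homeobox factor of pituitary development, was at 413, 383, 441 and 399 CPM and 409 pooled, against 118 in Gh-only, 800 in Prl-only and 460 in pair sums. Zbtb20, a repressor needed for lactotroph differentiation, was at 1898 CPM, with 1980 in Gh-only and 1753 in Prl-only barcodes. Rxrg, a retinoid receptor, was at 48.3 CPM (115 in Gh-only, 8.78 in Prl-only, 51.4 in pair sums). Of the 25 lineage factors listed, 14 could be compared and none was called different from the pair sums, with a median log2 ratio of -0.10. Calls were rare over all genes compared too, with 0.324% higher and 0.648% lower.

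Angpt1, an angiopoietin, was at 129, 224, 190.5 and 242.5 CPM in sets 1 to 4, or 202 pooled (158 to 255). Gh-only barcodes had 5.71, Prl-only 386 and pair sums 229. At least 1 UMI of Angpt1 was found in 41 of 98 barcodes (41.8%, 32.0 to 52.2%), against 1.89% of Gh-only and 2.05% of Pomc-only barcodes. Dlk1, a Notch-related protein of somatotrophs, was at 1938, 2858, 1977 and 1736 CPM by set and 2038 pooled, with 3212 in Gh-only, 718 in Prl-only and 1929 in pair sums. Pappa2, a protease that cleaves insulin-like growth factor binding proteins, was at 96.6 CPM, with 154 in Gh-only and 2.33 in Prl-only barcodes.

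The genes with the largest folds between the references had few counts. On the Prl side these included Syndig1, Slc17a8, Gpr83, Hapln1, Agtr1a, Lrfn5, Alk, Gabra2 and Angpt1, with 3 to 71 counts in the 98 barcodes. Gabra2, a GABA receptor subunit, was at 45.5 CPM against 1.17 in Gh-only and 86.3 in Prl-only barcodes, and Alk, a receptor tyrosine kinase, at 48.3 against 0.763 and 65.1. On the Gh side they were Ptchd1, Pappa, Ugt8a, Pappa2, Gm37965, Klk1b26, Cdr1os, Grik3, Sdk2 and Cd79b, with 2 to 34 counts. Sdk2, an adhesion protein, was at 39.8 CPM against 73.0 in Gh-only and 1.33 in Prl-only barcodes.

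Genes of the secretory granule were near the pair-sum level. Chgb, which encodes a granin, was at 7350, 8046, 7513 and 11036 CPM by set and 8852 pooled (8544 to 9169), with 1310 in Gh-only, 14256 in Prl-only and 8441 in pair sums. Scg2, another granin, was at 1304 CPM (384, 1875 and 1117 in the same order). Scg5, a chaperone of prohormone convertase, was at 1861 CPM (712, 2871 and 1907). The 25 listed genes of granules and exocytosis summed to 18955 CPM (18503 to 19415) against 18451 in pair sums, 7870 in Gh-only and 26994 in Prl-only barcodes.

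The 20 listed genes of the secretory pathway and unfolded protein response were at 8202 CPM in the 98 barcodes, 8096 in Gh-only, 8010 in Prl-only, 7956 in pair sums and 5755 in Pomc-only barcodes. Hspa5, an endoplasmic reticulum chaperone, was at 1174 CPM, with 1110 in Gh-only and 1117 in Prl-only barcodes. The 20 listed genes of sterol synthesis and uptake were at 1452 CPM, with 1788 in Gh-only, 882 in Prl-only and 1489 in pair sums. Cell division genes gave 51 counts in all, or 145 CPM (108 to 191), with 141 in Gh-only and 109 in Prl-only barcodes. Mki67, a marker of dividing cells, had 0 counts and Top2a, a topoisomerase of dividing cells, had 1.

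**Figure D4:**
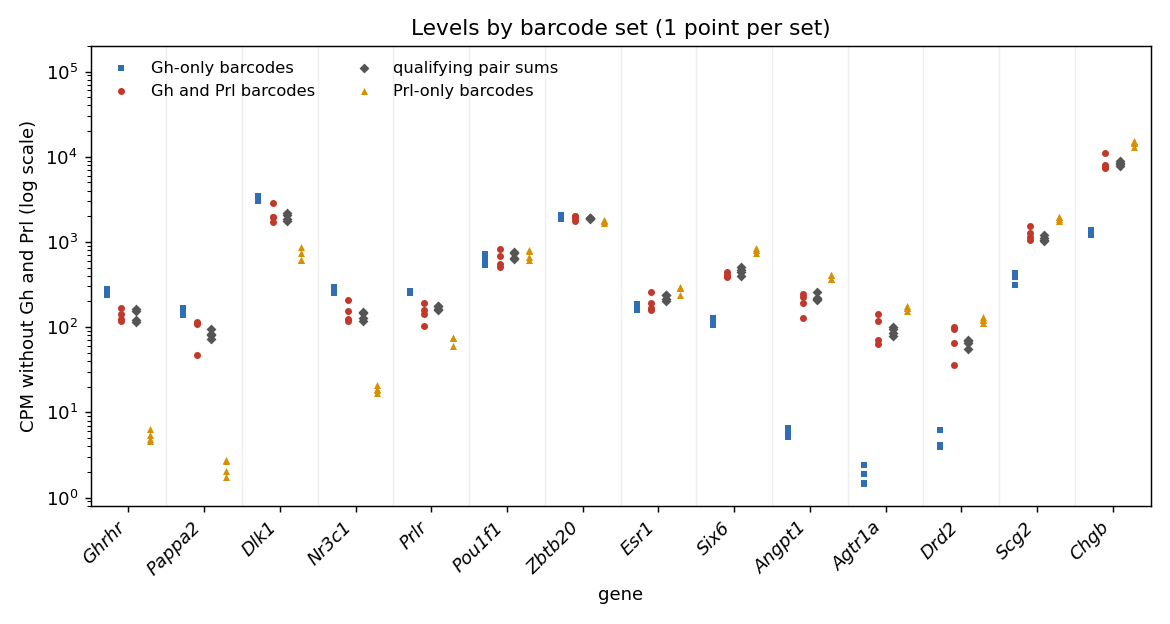
CPM without Gh and Prl (y axis, log scale) of 14 genes in sets 1 to 4, 1 point per set, for Gh-only barcodes, the Gh and Prl barcodes, qualifying pair sums and Prl-only barcodes. For Ghrhr and Angpt1 the Gh and Prl barcodes are at 119 to 168 and at 129 to 242.5 CPM, near the pair sums and far above the lower reference.

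To look for genes that set these barcodes apart from the pair sums, 8334 genes with at least 20 CPM in either were compared. A gene was called when it differed at least 1.5-fold in the same direction in all 4 sets. By this rule 27 genes (0.324%) were higher and 54 (0.648%) lower than the pair sums. A gene could enter the comparison by its level in the 98 barcodes alone or in the pair sums alone. Nothing is therefore read from these numbers. None of the called genes had many counts: the most in the 98 barcodes was 36 among the higher genes and 25 among the lower. With a minimum of 100 CPM, 1 gene was higher and 1 lower. With any 1 set left out, 97 to 125 genes were higher and 140 to 207 lower in the remaining 3.

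Among the 476 genes with at least 100 counts in the 98 barcodes, a set picked by that count, none was called and 475 lay within 1.5-fold of the pair sums pooled over sets. Their median log2 ratio was 0.05, against 0.00 over all genes compared. The exception was Cga, the subunit shared by the glycoprotein hormones, at 747 CPM against 389 in pair sums (log2 0.94). Set 3 held 1917 CPM of Cga, while sets 1, 2 and 4 held 284, 591 and 336. Cga also entered the rule, through its upper limit. The part of gonadotroph or thyrotroph RNA in this was not tested; Fshb had 24 counts, Lhb 1 and Tshb 10. The gonadotroph markers together were at 830 CPM against 417 in pair sums, from 284 to 2167 by set, and the thyrotroph markers at 793 against 427, from 336 to 1989; Cga is in both lists.

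**Figure D5:**
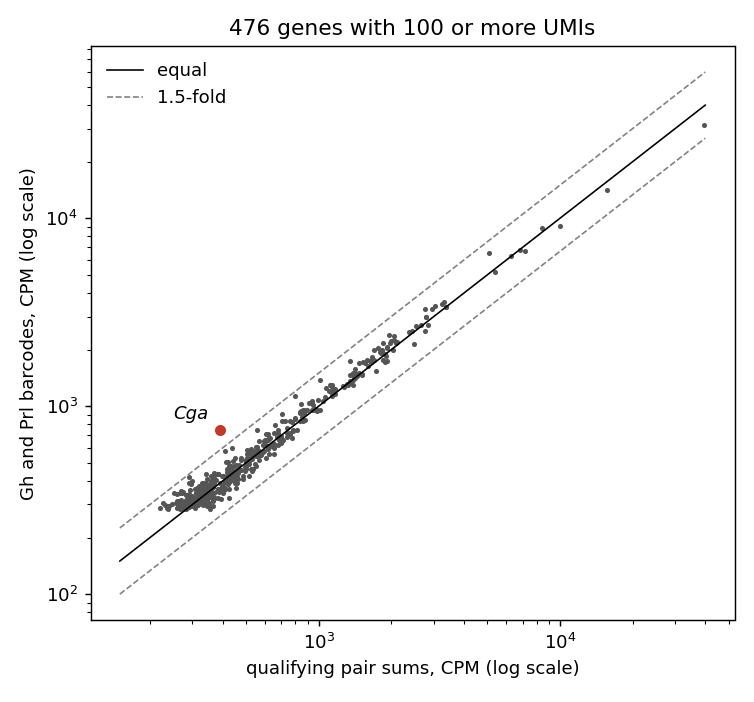
CPM in the 98 Gh and Prl barcodes (y axis) against CPM in the qualifying pair sums (x axis), both log scales, for 476 genes with 100 or more counts in the 98 barcodes; dashed lines mark 1.5-fold. All but Cga, in red, lie inside the dashed lines.

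Genes were also compared with both references at once. Of the 8334 genes, 11 (0.132%) were at least 1.5-fold above each reference in all sets, and 23 (0.276%) were below each. The 11 had 8 to 40 counts. They included Tmem259 at 114 CPM (81.2 to 155), with 62.6 in Gh-only and 64.8 in Prl-only barcodes, and Msi1, an RNA-binding protein, at 54.0 CPM (32.5 to 84.3), with 24.8 and 21.5. A gene could enter the comparison by its level in the 98 barcodes alone, so the number found above both references supports nothing. Of the 23 below both, Ldb1, a cofactor of LIM factors, had 15 counts and was at 42.6 CPM against 78.3 and 79.9, and the other 22 had 0 to 11 counts. Ldb1 was picked after its values were seen.

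Of the immediate early genes listed, 21 of 22 could be compared. None was called, against 0.324% higher and 0.648% lower over all genes compared. The 21 genes had a median log2 ratio to the pair sums of 0.30, against 0.00 over all genes compared. The 22 genes listed summed to 25386 CPM in the 98 barcodes, 26187 in Gh-only, 28082 in Prl-only and 21821 in pair sums. The sum in the 98 was thus under both references, and that of the pair sums was lower still. By set the sum ran from 20738.5 to 28949 CPM in the 98 and from 16600 to 26579 in the pair sums. Fos was at 6573 CPM (5013 in Gh-only, 8067 in Prl-only, 5065 in pair sums) and Dusp1, a phosphatase induced by stress, at 1137 (634, 1422 and 798). Npas4, an activity-dependent factor, was at 577 CPM (190, 848 and 408). Pooled over sets, Jun was at 3376 CPM against 3372 in pair sums, Egr1 at 2691 against 2653 and Junb at 2188 against 2121. Each of these genes was above the pair sums in sets 1 and 2 and under them in sets 3 and 4. Jun was at 3862.5 CPM against 2385 in set 1 and at 2953 against 3857 in set 3. The pooled levels were thus near the pair sums while the sets differed in opposite directions. Mitochondrial genes took a median of 1.58% of UMIs in the 98 barcodes, 0.971% in Gh-only and 1.51% in Prl-only barcodes. Whether handling of the tissue moved these genes was not tested.

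Markers of other cells were low. Endothelial markers summed to 125 CPM (90.9 to 168), against 42.4 in pair sums, and set 2 alone held 591 CPM while another set held 7.82; each of the 7 had at least 1 count. Macrophage markers were at 56.8 CPM against 104 in pair sums. Stem or folliculostellate markers were at 90.9 CPM against 63.8, fibroblast markers at 151 against 150 and B cell markers at 17.1 against 25.9. Neutrophil markers had 0 counts, and pericyte, pituicyte and T or NK cell markers had 2 or 3 counts each. Red blood cell markers were at 36.9 CPM against 127 in pair sums, which ran from 55.6 to 241 CPM by set. Of these genes 2 could be compared, Hbb-bs and Hba-a1, and both were called lower, on 10 counts and 1 count. Over all genes compared, 0.648% were called lower. Nothing is read from calls on so few counts. Pomc itself, limited by the rule, was at 1032 CPM, with 2002 in set 1 and 571 in set 4.

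A doublet caller marked many of the 98. Scrublet, which scores each barcode by its likeness to sums of random pairs, marked 40 of them (40.8%, exact interval 31.0 to 51.2%), against 3.81% of Gh-only and 2.37% of Prl-only barcodes. Gh and Prl were left in for the scores, and the groups were chosen by these transcripts. The rule thus bears on the marked shares, and nothing is read from their difference. By set Scrublet marked 57.9%, 40.0%, 56.5% and 22.2% of the 98. Its automatic score thresholds were 0.225, 0.202, 0.203 and 0.25 in sets 1 to 4, so these shares are not on 1 scale. It also marked 6 of the 23 Gh and Pomc barcodes and 9 of the 15 Prl and Pomc barcodes. The marked share of the 98 was 7 of 23 with 1000 to 3000 UMIs, 9 of 33 with 3000 to 6000 and 24 of 42 with 6000 to 10000. With the upper limit at 20000 UMIs, 76.2% of 399 barcodes were marked.

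The 58 unmarked barcodes had nearly the same gene positions. Without marked barcodes in any group, the Prl-side position was 0.574 and that of the pair sums 0.540, and the Gh-side position was 0.458 and that of the pair sums 0.481. The ratio of Gh and Prl to Gh and Pomc barcodes per qualifying pair was then 0.936, and the share of the window was 0.249%. Which of the barcodes held 1 cell and which held 2 was not determined.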

How the data were processed

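UMI counts per gene and barcode were deposited as 1 matrix of all 4 libraries, with tables of barcodes and gene symbols. Per the file headers it was written by Cell Ranger 8.0.1, and per the submitters' processing notes Seurat was also used, with no version. The genome build is not given in the sources used here; neither is any doublet removal before deposit. All libraries together were treated as 1 pooled sample. Pair sums were enumerated in full within each set. Their profile was pooled at the 98 barcodes' UMIs per set. Shares have exact Clopper-Pearson intervals and counts exact Poisson intervals (95%, counting error only). A list median uses log2((CPM + 1)/(CPM + 1)). Scrublet in scanpy 1.11.5 ran per set on 39839 barcodes with at least 500 UMIs and 250 genes and at most 25% mitochondrial UMIs. Its default expected rate of 0.05 marked 2 and 0 barcodes in sets 1 and 4, so 0.08 with genes in at least 3 barcodes was used instead, after seeing this. It marked 6.84 to 10.9% per set. No doublet was removed unless stated. The call rule was checked on synthetic data, with changes larger than 1.5-fold in abundant genes only. That check does not cover calls on few counts. Named genes are Gh, Prl, Pou1f1, list genes with at least 100 counts or needed to describe a list, the 10 largest folds per side, and called genes. A few genes that this rule names are not reported here. None of the genes called against the pair sums had 100 counts. The members and lists were chosen with earlier results of these data known. Alternatives were a 20000-UMI limit, stricter hormone limits, 5% mitochondrial UMIs, marked barcodes left out, weighted pair sums, 5-fold side genes, 100 CPM and each set left out.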

Additional observations from a re-analysis of the deposited data

How the results depend on the processing

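No paired analysis was possible because the barcodes are not tied to libraries or to their replicate numbers.

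In all, 91 values were recomputed under alternatives. Of these, 56 stayed inside the counting interval of the main value, or within 1.5 times for gene counts, and 35 did not. Pair-sum positions have no such interval of their own, so they were given the width found for the 98 barcodes. With the limit at 20000 UMIs, the share was 1.13%, the median UMI ratio 1.48, the positions 0.504 (Prl side) and 0.505 (Gh side), the called genes 0 higher and 4 lower, and the marked share 76.2%. The stricter limits gave a share of 0.152%, a ratio of 0.989, positions of 0.582 and 0.405 (pair sums 0.507 and 0.540) and 281 lower genes. Leaving out marked barcodes gave a share of 0.249% and 166 lower genes. Weighting the pair sums to the UMIs and hormone balance of the 98 moved their Prl-side position to 0.519. For the 14 barcodes under 2000 UMIs there were no pair sums to weight, so the weights do not cover them. Side genes 5-fold apart gave a Gh-side position of 0.452. A minimum of 100 CPM left 1 higher and 1 lower gene.

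Leaving out each set in turn, the share ran from 0.346 to 0.435%, the rate ratio from 1.06 to 1.63, the median UMI ratio from 0.654 to 0.819, the Prl-side position from 0.492 to 0.581 (pair sums 0.519 to 0.551), the Gh-side position from 0.454 to 0.525 (pair sums 0.474 to 0.502), and the marked share from 36.0 to 51.6%. Higher genes numbered 97 to 125 and lower genes 140 to 207, since 3 sets are easier to pass than 4. The default Scrublet rate was not carried through. Depth limits single genes: 20 counts in the 98 barcodes are 56.8 CPM.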
